A study of Mus musculus with 18 samples.

Results

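Liver mRNA was examined for the 10 genes that encode the enzymes of serine synthesis and of the folate one-carbon cycle: Phgdh, Psat1, Psph, Shmt1, Shmt2, Mthfd1, Mthfd2, Mthfd1l, Aldh1l1 and Aldh1l2. They were picked by gene symbol from the 37303 genes of the deposited expression table, and all 10 were found with usable values in every group. RNA-Seq had been carried out on livers of C57BL/6J WT mice and of mice with a whole-body homozygous deletion of Gcn2 or Atf4, so that no cell of the Gcn2-/- or Atf4-/- animals carried an intact copy. Mice of each genotype received 8 daily intraperitoneal injections of asparaginase (ASNase, 3 IU per gram body weight), an enzyme that breaks down circulating asparagine and, less so, glutamine, or of the PBS excipient. This gave 6 groups of 3 mice and 18 libraries in all. Livers were taken 7.5 h after the last injection by the sample records and somewhat later by the study's methods, and the ages recorded for the mice ran from 8 to 16 weeks. Of the 3 mice in a group, 1 was male in WT PBS, Gcn2-/- PBS and Gcn2-/- ASNase and 2 were male in WT ASNase, Atf4-/- PBS and Atf4-/- ASNase, so that in WT mice sex and treatment did not vary independently. Sex also differed with genotype, between Atf4-/- and WT under PBS, between Gcn2-/- and WT under ASNase, and between Atf4-/- and Gcn2-/- mice under either treatment.

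The serine synthesis pathway branches from glycolysis. Phosphoglycerate dehydrogenase (Phgdh) oxidizes 3-phosphoglycerate, phosphoserine aminotransferase (Psat1) adds an amino group taken from glutamate, and phosphoserine phosphatase (Psph) releases serine. Serine hydroxymethyltransferase, Shmt1 in the cytosol and Shmt2 in mitochondria, moves a carbon from serine to tetrahydrofolate and leaves glycine. Mthfd2 and Mthfd1l carry that carbon to formate inside mitochondria, Mthfd1 does the corresponding steps in the cytosol, and Aldh1l1 (cytosol) and Aldh1l2 (mitochondria) oxidize 10-formyltetrahydrofolate to carbon dioxide. GCN2 is a kinase that senses amino acid shortage and phosphorylates eIF2, which raises translation of the transcription factor ATF4. Phgdh, Psat1, Shmt2, Mthfd2 and Aldh1l2 are widely described as ATF4 targets in cultured cells, whereas adult liver is known for abundant cytosolic folate enzymes.

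Promoter sequence was read first, since the genes were compared as a possible set of ATF4 targets. RefSeq start sites on GRCm38.p6 gave a window of 250 bases before the start for 9 of the 10 genes; Aldh1l2 was not among them. The windows of Psat1 (chr19:15925060-15925309, minus strand, the upstream one of its pair of RefSeq starts), Mthfd2 (chr6:83317605-83317854, minus strand) and Shmt1 (chr11:60811266-60811515, minus strand) are shown 5′ to 3′ with the start site just past the right end. Psat1 and Mthfd2 are shown as scarce genes with a difference over its error after ASNase in at least 1 genotype and a higher level in each, and Shmt1 as the abundant gene with the largest difference. Capitals mark CCAAT or, on the other strand, ATTGG.
Psat1: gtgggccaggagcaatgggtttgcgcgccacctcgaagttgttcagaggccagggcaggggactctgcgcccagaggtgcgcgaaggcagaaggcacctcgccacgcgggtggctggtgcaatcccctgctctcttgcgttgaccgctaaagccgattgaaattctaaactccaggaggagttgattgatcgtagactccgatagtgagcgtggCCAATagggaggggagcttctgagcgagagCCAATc
Mthfd2: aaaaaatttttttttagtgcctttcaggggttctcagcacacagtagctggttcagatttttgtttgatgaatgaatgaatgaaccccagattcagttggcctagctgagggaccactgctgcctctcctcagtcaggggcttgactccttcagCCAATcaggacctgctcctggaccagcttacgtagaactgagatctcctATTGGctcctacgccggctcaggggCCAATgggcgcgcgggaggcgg
Shmt1: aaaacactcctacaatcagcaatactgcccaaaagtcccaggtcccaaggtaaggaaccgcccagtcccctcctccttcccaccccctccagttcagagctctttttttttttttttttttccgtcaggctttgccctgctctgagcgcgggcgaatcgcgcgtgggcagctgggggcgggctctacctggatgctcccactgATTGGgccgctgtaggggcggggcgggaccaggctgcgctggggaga
Both strands were searched, and where a gene had more than 1 start each window was. CCAAT was found in 7 of the 9 genes, the exceptions being Mthfd1l and Shmt2, and in 33.8% of the 32851 RefSeq windows of the same length. TGATGNAA, the composite element bound by C/EBP and ATF4 dimers, was found in 0 of the 9 genes and in 3.45% of all windows. For reference, the window of Asns, asparagine synthetase, holds TGATGAAA 23 bases before the start. CACGTG, the E-box, was found in 0 of the 9 genes against 6.02% of windows, and TGACNNNGC, the core of the antioxidant response element, in 1 of the 9 (Phgdh) against 10.2%. These are matches of letters in a short window and were not tested for binding.

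Expression was given as FPKM, a count of fragments scaled for sequencing depth and for the length of the transcript, so that levels can be set side by side between genes. Cuffdiff had estimated 1 FPKM per gene and group from the 3 libraries together, with an interval around it, here written after each level. The table holds neither the single animals nor read counts. The spread between mice and the depth behind a value are therefore unknown, the intervals stand in for the error, and no p-value could be computed. All 60 values of the 10 genes had passed Cuffdiff's status check, and 25 of them had an interval reaching down to 0.

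The first step of serine synthesis was barely represented in these livers. Phgdh (chr3:98313170-98339990 on GRCm38, minus strand) was at an FPKM of 0.401 (0 to 1.16) in WT PBS, 0.621 (0 to 1.33) in WT ASNase, 0.223 (0 to 0.620) in Gcn2-/- PBS, 0.174 (0 to 0.558) in Gcn2-/- ASNase, 0.129 (0 to 0.484) in Atf4-/- PBS and 0.187 (0 to 0.673) in Atf4-/- ASNase. Both WT values lay above the 4 values from deleted mice, but every interval started at 0 and all overlapped. Transcripts of Phgdh are 98.7% identical over 1597 bases to the processed pseudogene Gm7901, which was listed at 0.

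Psat1, the aminotransferase of the second step (chr19:15904678-15947337, minus strand), varied most among the 10 genes, with 33.7 times between its highest and its lowest level. Its FPKM was 0.774 (0 to 1.80) in WT PBS and 3.73 (0.512 to 6.96) in WT ASNase. In Gcn2-/- livers it was 0.417 (0 to 1.02) under PBS and 1.23 (0 to 2.76) under ASNase, and in Atf4-/- livers 0.111 (0 to 0.426) and 1.28 (0 to 2.61). The ASNase value was the higher one in each genotype, and WT ASNase was highest, while the intervals overlapped in every comparison made. Psph (chr5:129765558-129787449, minus strand), which completes serine synthesis, was the steadiest of the 10, between an FPKM of 2.77 (1.02 to 4.53) in Atf4-/- PBS and 4.09 (1.37 to 6.82) in WT ASNase, a range of 1.48 times. It was 3.25 (1.34 to 5.16) in WT PBS, 3.47 (1.41 to 5.53) in Gcn2-/- PBS, 3.99 (1.51 to 6.47) in Gcn2-/- ASNase and 3.57 (1.46 to 5.69) in Atf4-/- ASNase. Over 452 bases it lies opposite a transcript of Cct6a, whose level reached 57.8, and as the library kit did not mark strand, reads of the pair cannot be told apart there.

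**Figure D1:**
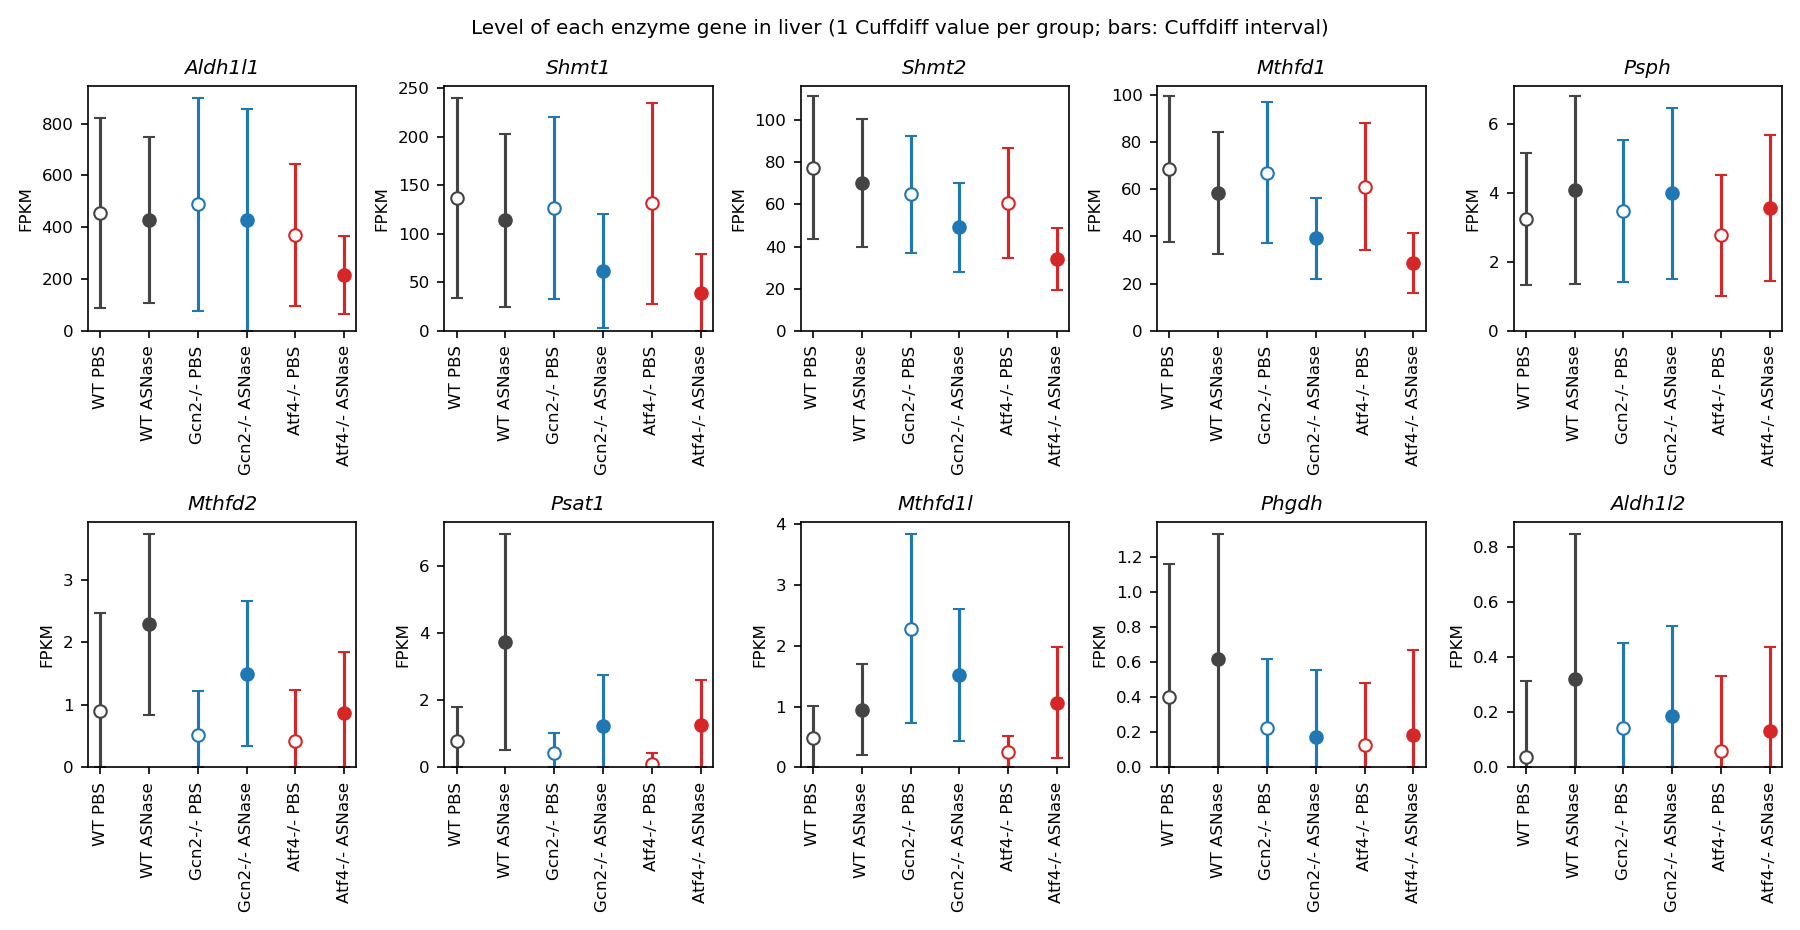
Level of each of the 10 enzyme genes in FPKM (vertical axis, linear, from 0) in the 6 groups (horizontal axis), with open circles for PBS and filled circles for ASNase; bars are Cuffdiff intervals around 1 value per group. Aldh1l1, Shmt1, Shmt2 and Mthfd1 were lowest in Atf4-/- ASNase livers, and Psat1 and Mthfd2 were higher after ASNase in each genotype with wide, overlapping intervals.

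Serine hydroxymethyltransferase was abundant in both compartments. Shmt1, the cytosolic enzyme (chr11:60788104-60811718, minus strand), was at an FPKM of 137 (34.1 to 240.2) in WT PBS, 114 (24.7 to 203) in WT ASNase, 127 (33.1 to 220.1) in Gcn2-/- PBS, 61.4 (2.82 to 119.9) in Gcn2-/- ASNase, 131 (27.6 to 235) in Atf4-/- PBS and 38.8 (0 to 79.1) in Atf4-/- ASNase. The 3 PBS groups stood close together, and the ASNase groups of the deleted mice were the lowest. Shmt2, the mitochondrial enzyme (chr10:127517123-127522444, minus strand), was at 77.5 (43.4 to 112) in WT PBS, 70.1 (39.9 to 100.4) in WT ASNase, 64.8 (37.0 to 92.5) in Gcn2-/- PBS, 49.2 (28.1 to 70.4) in Gcn2-/- ASNase, 60.6 (34.5 to 86.7) in Atf4-/- PBS and 34.1 (19.5 to 48.7) in Atf4-/- ASNase. Its order of groups within each treatment was WT, Gcn2-/-, Atf4-/-. The ratio of Shmt1 to Shmt2 FPKM was 1.77 in WT PBS, 1.95 in Gcn2-/- PBS and 2.17 in Atf4-/- PBS, and 1.62, 1.25 and 1.14 in the ASNase groups of the same genotypes.

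Of the cytosolic folate enzymes, Aldh1l1 was among the most abundant liver mRNAs, and Mthfd1 was abundant at a lower level. Aldh1l1, the 10-formyltetrahydrofolate dehydrogenase (chr6:90486427-90600203, plus strand), stood above 99.0% of the genes with a value over 0 in WT PBS. Its FPKM was 455 (87.4 to 822) in WT PBS, 429 (108 to 750.2) in WT ASNase, 489 (77.6 to 901) in Gcn2-/- PBS, 427 (0 to 856) in Gcn2-/- ASNase, 369 (94.0 to 644) in Atf4-/- PBS and 216 (65.1 to 367) in Atf4-/- ASNase. Atf4-/- ASNase livers were lowest, inside the interval of every other group. Mthfd1, the trifunctional cytosolic enzyme (chr12:76255298-76319803, plus strand), was at 68.5 (37.5 to 99.5) in WT PBS, 58.5 (32.7 to 84.4) in WT ASNase, 67.0 (37.2 to 96.8) in Gcn2-/- PBS, 39.1 (21.9 to 56.3) in Gcn2-/- ASNase, 61.1 (34.1 to 88.1) in Atf4-/- PBS and 28.8 (16.2 to 41.4) in Atf4-/- ASNase. Its pattern over the groups was close to that of Shmt1. Transcripts on the other strand overlap both Aldh1l1 (332 bases of the antisense gene Gm15756, up to 15.5 FPKM) and Shmt1 (184 bases of Smcr8, up to 7.73 FPKM), at levels well below theirs.

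The mitochondrial enzymes beyond Shmt2 were scarce. Mthfd2, methylenetetrahydrofolate dehydrogenase (chr6:83305691-83325908, minus strand), was at an FPKM of 0.901 (0 to 2.47) in WT PBS and 2.28 (0.839 to 3.72) in WT ASNase, 0.519 (0 to 1.21) and 1.496 (0.339 to 2.65) in Gcn2-/- PBS and ASNase, and 0.425 (0 to 1.24) and 0.864 (0 to 1.83) in Atf4-/- PBS and ASNase. As for Psat1, the ASNase value was the higher one in each genotype. Mthfd1l, the formyltetrahydrofolate synthetase that releases formate (chr10:3973118-4167081, plus strand), was at 0.477 (0 to 1.01) in WT PBS, 0.948 (0.204 to 1.69) in WT ASNase, 2.28 (0.722 to 3.84) in Gcn2-/- PBS, 1.52 (0.428 to 2.61) in Gcn2-/- ASNase, 0.248 (0 to 0.519) in Atf4-/- PBS and 1.06 (0.148 to 1.98) in Atf4-/- ASNase. Among the scarce enzymes it alone was highest in Gcn2-/- PBS. Aldh1l2 (chr10:83487450-83534140, minus strand) was at or below 0.319 (0 to 0.846), its value in WT ASNase, and lowest in WT PBS at 0.0378 (0 to 0.314). Its other values were 0.141 (0 to 0.452) in Gcn2-/- PBS, 0.187 (0 to 0.513) in Gcn2-/- ASNase, 0.0581 (0 to 0.330) in Atf4-/- PBS and 0.130 (0 to 0.437) in Atf4-/- ASNase. The Aldh1l2 level is uncertain, since 1056 bases of its transcript lie opposite D10Wsu102e, a gene of higher level (up to 16.6 FPKM), and reads of the pair cannot be told apart without strand.

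The 10 genes thus formed an abundant set of 4 and a scarce set of 6. In WT PBS the order of levels was Aldh1l1, Shmt1, Shmt2, Mthfd1, Psph, Mthfd2, Psat1, Mthfd1l, Phgdh and Aldh1l2, and the step from Mthfd1 (68.5) to Psph (3.25) was the one at which neighbouring intervals did not overlap. Shmt1, Shmt2 and Mthfd1 stood above 96.5%, 94.3% and 93.8% of the genes with a value over 0 in that group, Psph above 56.4% and Aldh1l2 above 12.0%. The same split between the abundant 4 and the scarce 6 held in all 6 groups, with changes of order inside each set. Cytosolic Mthfd1 was 76.0 times as high as mitochondrial Mthfd2 in WT PBS, 129 times in Gcn2-/- PBS and 144 times in Atf4-/- PBS, against 25.7, 26.2 and 33.3 times in the ASNase groups. Precision differed by set too. From value to edge, an interval spanned 42.8% to 44.0% of the value for Shmt2 and 43.7% to 45.3% for Mthfd1, but 86.3% to 284% for Psat1 and 165% to 729% for Aldh1l2.

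The first question asked of these values was how ASNase altered the enzymes in each genotype. In WT livers Psat1 was 4.82 times as high after ASNase, and the abundant enzymes were within 1.21-fold of their PBS values. In Atf4-/- livers Shmt1 was 3.38-fold lower, Mthfd1 2.12-fold lower and Shmt2 1.77-fold lower after ASNase, while Psat1 was 11.5 times as high from a base close to 0. In Gcn2-/- livers the differences of Shmt1 and Mthfd1 had the same sign and were smaller, at 2.06-fold and 1.71-fold lower. None of these differences met the rule for a call.

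Differences were taken between log2(FPKM + 0.1) values, so that those of the scarce genes come out smaller than the ratio of their FPKM. A gene was eligible where it had an FPKM over 3 in either group, and was called where it also differed by more than 1.5 on the log2 scale with intervals that did not overlap. Of the 10 enzymes, 6, 5 and 5 were eligible in the ASNase comparisons of WT, Gcn2-/- and Atf4-/- livers. The number called was 0 in each, where the rule called 0.881%, 3.69% and 7.37% of all eligible genes. Without a limit on the fold, separate intervals were found for 0 of these eligible enzymes and for 1.01%, 4.24% and 8.03% of eligible genes. The other enzymes had none either. Every interval of Phgdh and of Aldh1l2 started at 0, so that theirs could not be separate at any level. As a looser yardstick, each difference was set against its combined error, the root of the summed squares of both distances from value to upper bound on the log2 scale. It was passed by 3.02%, 16.3% and 25.6% of eligible genes in the same comparisons. An interval that is even in FPKM reaches further down than up on the log2 scale, unless its value is close to 0. The combined error therefore leaves out the longer side of the higher value and understates the error. A difference that passed it can still have intervals that overlap widely.

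In WT livers, 1 of the 10 enzymes differed by more than the combined error. Psat1 was higher after ASNase by 2.13 on the log2 scale (combined error 1.42), and 0.903% of eligible genes showed a larger increase. The other scarce enzymes were higher by 1.61 (1.97) for Aldh1l2, 1.25 (1.52) for Mthfd2, 0.86 (1.22) for Mthfd1l, 0.52 (1.66) for Phgdh and 0.32 (0.97) for Psph, all 5 within their errors. Shmt1, Mthfd1, Shmt2 and Aldh1l1 differed by -0.27, -0.23, -0.14 and -0.08. If the combined error took the place of separate intervals in the rule, Psat1 would be called, with 1.2% of eligible genes. It was eligible only through its WT ASNase value, the group where it was high. With a pseudocount of 1 its difference was 1.42, under the limit of 1.5. The scarce set was thus on the higher and the abundant set on the lower side of 0. The median was 0.42 for the 10 and -0.11 for the 6 that were eligible, against -0.01 for all eligible genes.

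In Gcn2-/- livers, 2 of the 10 passed the combined error in opposite directions. Mthfd2 was higher by 1.37 (1.34), at an FPKM below 3 in both groups, and no longer passed with a pseudocount of 1 in place of 0.1 (0.72, error 0.77), and Mthfd1 differed by -0.78 (0.75). Shmt1 differed by -1.04 (1.25), Shmt2 by -0.40 (0.73) and Aldh1l1 by -0.19 (1.33), and Psat1 by 1.37 (1.57), each within its error. Mthfd1l, at -0.56 (1.04), was the scarce gene with the largest difference on the lower side. The median was -0.22 for the 10 and -0.40 for the 5 that were eligible, against 0.02 for all eligible genes.

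In Atf4-/- livers, 5 of the 10 passed the combined error. Shmt1 differed by -1.76 (1.32), Mthfd1 by -1.08 (0.74) and Shmt2 by -0.83 (0.73), and 5.33%, 11.5% and 16.1% of eligible genes showed a larger decrease. Of all eligible genes, 13.6% passed on the lower and 11.9% on the higher side. With the combined error in the rule for calls, Shmt1 would be called, with 11.3% of eligible genes. Psat1 was higher by 2.70 (1.64) and Mthfd1l by 1.74 (1.18), both at an FPKM below 3 throughout, so that neither was eligible. Aldh1l1 was at -0.77 (1.11), Mthfd2 at 0.88 (1.68), Psph at 0.35 (0.95), Aldh1l2 at 0.54 (1.89) and Phgdh at 0.33 (1.97), within their errors. The median was 0.34 for the 10 and -0.83 for the 5 that were eligible, against 0.08 for all eligible genes.

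**Figure D2:**
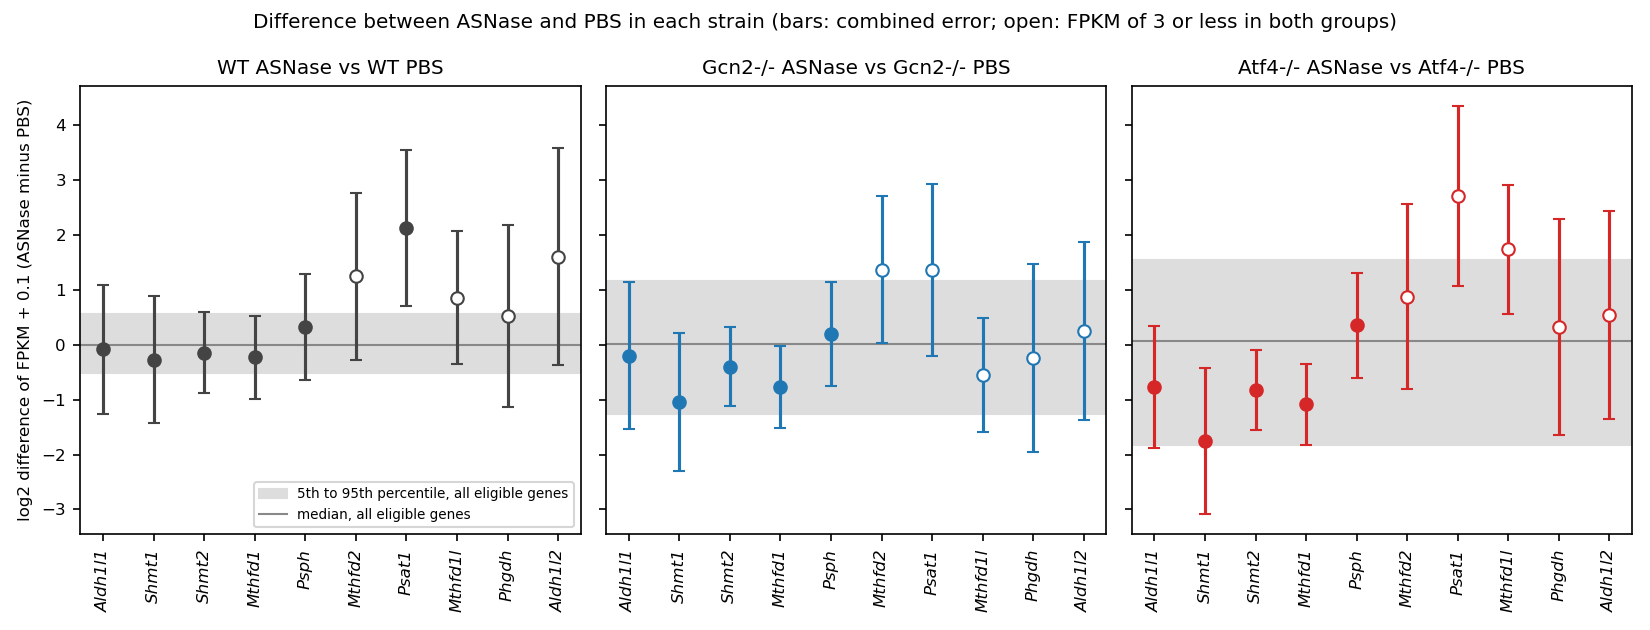
Difference between ASNase and PBS in each genotype on log2(FPKM + 0.1) (vertical axis) for the 10 enzymes (horizontal axis, in the order of their WT PBS levels), with bars for the combined error, open circles for genes with an FPKM of 3 or less in both groups, and a grey band from the 5th to the 95th percentile of all eligible genes. Psat1 lies above its error in WT and Atf4-/- livers, and Shmt1, Shmt2 and Mthfd1 lie below 0 by more than their error in Atf4-/- livers, inside the band of all genes.

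Whether the ASNase difference itself varied with genotype was asked of each gene by subtracting the log2 differences, with the errors of all 4 values combined and a limit of 1.5. Of the 10 enzymes, 0 passed between Gcn2-/- and WT and 0 between Atf4-/- and WT, where 5.79% and 8.85% of the genes eligible in both comparisons did. Between Atf4-/- and Gcn2-/- livers 1 of the 10, Mthfd1l, passed, against 5.14%, but it was not itself eligible, and with a pseudocount of 1 it did not pass (1.11, under the limit of 1.5). The Mthfd1l levels in Atf4-/- and Gcn2-/- livers were 0.248 and 2.28 under PBS and 1.06 and 1.52 under ASNase, so that the PBS levels lay further apart. Shmt1 came near the limit, with a difference of -1.49 between Atf4-/- and WT (error 1.76). For Psat1 the subtraction gave -0.77 (2.12) between Gcn2-/- and WT and 0.57 (2.17) between Atf4-/- and WT. The ASNase difference of Psat1 was therefore not shown to depend on either gene, and intervals this wide could hide a large dependence.

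The second question was what the deletions did without ASNase. Under PBS, 0 of 5 eligible enzymes were called against WT in Gcn2-/- livers and 0 of 5 in Atf4-/- livers, where 1.04% and 1.12% of all eligible genes were. Of the 5 eligible enzymes, 0 had separate intervals at any fold in either genotype, against 1.2% and 1.28% of eligible genes. The combined error was passed by 0 of the 5, against 4.13% and 3.89%. Of the enzymes below the FPKM limit, 1 passed in each. The abundant enzymes differed from WT by -0.36 to 0.10 on the log2 scale. Psat1 in Atf4-/- PBS was 6.98-fold below WT PBS (log2 difference -2.05, combined error 1.73), and this did not pass with a pseudocount of 1 (-0.68, error 0.75). Phgdh (-1.13, error 1.90), Mthfd2 (-0.93, 1.92) and Mthfd1l (-0.73, 1.25) were also lower in Atf4-/- PBS, within their errors, and 9 of the 10 genes were on the lower side. In Gcn2-/- PBS, Mthfd1l was 4.78 times as high as in WT PBS (2.04, error 1.19). It was not eligible, at an FPKM below 3 in both groups, and with a pseudocount of 1 the difference was 1.15 (error 0.71). Psat1 (-0.76), Mthfd2 (-0.69) and Phgdh (-0.63) were lower there, by less than their errors.

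The third comparison set the ASNase groups side by side. Against WT ASNase, 0 of 6 eligible enzymes were called in Gcn2-/- ASNase and 0 of 6 in Atf4-/- ASNase, with 4.41% and 8.25% of all eligible genes called, and 0 of 5 were called between Atf4-/- and Gcn2-/- ASNase livers, with 3.19%. Separate intervals at any fold were found for 0 of these eligible enzymes, against 4.87%, 9.01% and 3.61% of eligible genes in these 3 comparisons. In Gcn2-/- ASNase, all but Mthfd1l of the 10 were lower than in WT ASNase, and Psat1, 3.03-fold lower, passed its combined error (-1.52, error 1.41), as 16.3% of eligible genes did. In Atf4-/- ASNase, again all but Mthfd1l were lower than in WT ASNase, and 5 genes passed: Shmt1 was 2.93-fold lower (-1.55, 1.32), Psat1 2.93-fold lower (-1.48, 1.32), Mthfd2 2.64-fold lower (-1.30, 1.21), Shmt2 2.06-fold lower (-1.04, 0.73) and Mthfd1 2.03-fold lower (-1.02, 0.74). Of all eligible genes, 26.3% passed the combined error in this comparison, 14.8% on the lower side. With the combined error in the rule for calls, Psat1 would be called in Gcn2-/- ASNase, with 7.16% of eligible genes, and Shmt1 in Atf4-/- ASNase, with 12.5%. Psat1 was eligible only through WT ASNase, where it was high. With a pseudocount of 1 its difference in Gcn2-/- ASNase was -1.08, short of the limit of 1.5. The median of the 10 was -1.03 in Atf4-/- and -0.56 in Gcn2-/- ASNase livers against WT ASNase. Over the 6 eligible it was -1.03 and -0.55, with 0.07 and 0.05 for all eligible genes. Between Atf4-/- and Gcn2-/- ASNase livers 0 of the 10 enzymes and 14.8% of eligible genes passed the combined error, the largest enzyme difference being that of Aldh1l1 (-0.98, error 1.26). Both genotypes were compared with the same WT groups, so their values against WT are not independent of each other.

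Markers of other cells differed between these groups and are given beside the enzyme values. Of 10 hepatocyte markers, 9 had usable values, all over an FPKM of 3 in each group. Their summed FPKM went with treatment from 21152 to 17339 in WT, from 22906 to 14237 in Gcn2-/- and from 17672 to 9420 in Atf4-/- livers, PBS given first. Its largest member in WT PBS was Apoa1, at 6291. The median FPKM of the 9 markers was 1103 and 1169 in WT, 1254 and 1314 in Gcn2-/- and 1317 and 851 in Atf4-/- livers, so that sum and median were both lower after ASNase in Atf4-/- livers and went opposite ways in the other genotypes. Both were lowest in Atf4-/- ASNase, the group with the lowest Shmt1, Shmt2, Mthfd1 and Aldh1l1, and their part in those levels was not tested. In whole liver, fewer cells of a type and less RNA per cell cannot be told apart.

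The 9 pancreatic acinar markers summed to an FPKM of 13.3 in WT PBS and 69.0 in WT ASNase, with 1 and 6 of them over 3. They summed to 10.6 and 5.47 in Gcn2-/- PBS and ASNase, where Cpa1, Cela3b, Pnlip, Cpb1, Cel and Prss2 were listed at 0 in both groups. In Atf4-/- livers the sums were 16.1 under PBS, with 1 marker over 3, and 354 under ASNase, with all 9 over 3. Psat1 was at 0.774 and 3.73 in WT PBS and ASNase, 0.417 and 1.23 in Gcn2-/- and 0.111 and 1.28 in Atf4-/- livers. After ASNase, Psat1 and the acinar sum were both higher in WT and Atf4-/- livers. In Gcn2-/- livers Psat1 was higher and the sum lower. Among the ASNase groups Psat1 was highest in WT and the sum in Atf4-/- livers. The part of acinar mRNA in the enzyme values was not tested.

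Skeletal muscle markers (10 genes) summed to 736 and 1083 in WT PBS and ASNase, 5.90 and 8.97 in Gcn2-/- and 58.6 and 145 in Atf4-/- livers. Myh4 and Pvalb were listed at 0 in Gcn2-/- PBS and Pvalb in Gcn2-/- ASNase. Markers of proliferating cells (8 genes), in which mitochondrial folate enzymes are often high, summed to 13.2, 15.2, 10.8, 6.54, 4.86 and 2.61 in the order WT, Gcn2-/-, Atf4-/- with PBS before ASNase, and none was listed at 0. They were higher after ASNase in WT livers and lower in Gcn2-/- and Atf4-/- livers, while Psat1 and Mthfd2 were higher in each genotype. The part of these cells, and of the sex of the mice, in the enzyme values was not tested. The deleted genes kept an FPKM in their own knockout groups. Atf4 was at 50.4 and 63.1 in WT PBS and ASNase and at 32.3 and 29.3 in Atf4-/- PBS and ASNase, and Eif2ak4, which encodes GCN2, was at 3.04 and 2.39 in WT and at 2.31 and 2.96 in Gcn2-/- livers. The table has no value per exon, so these levels do not check the genotypes, which the study examined in the aligned reads.

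**Figure D3:**
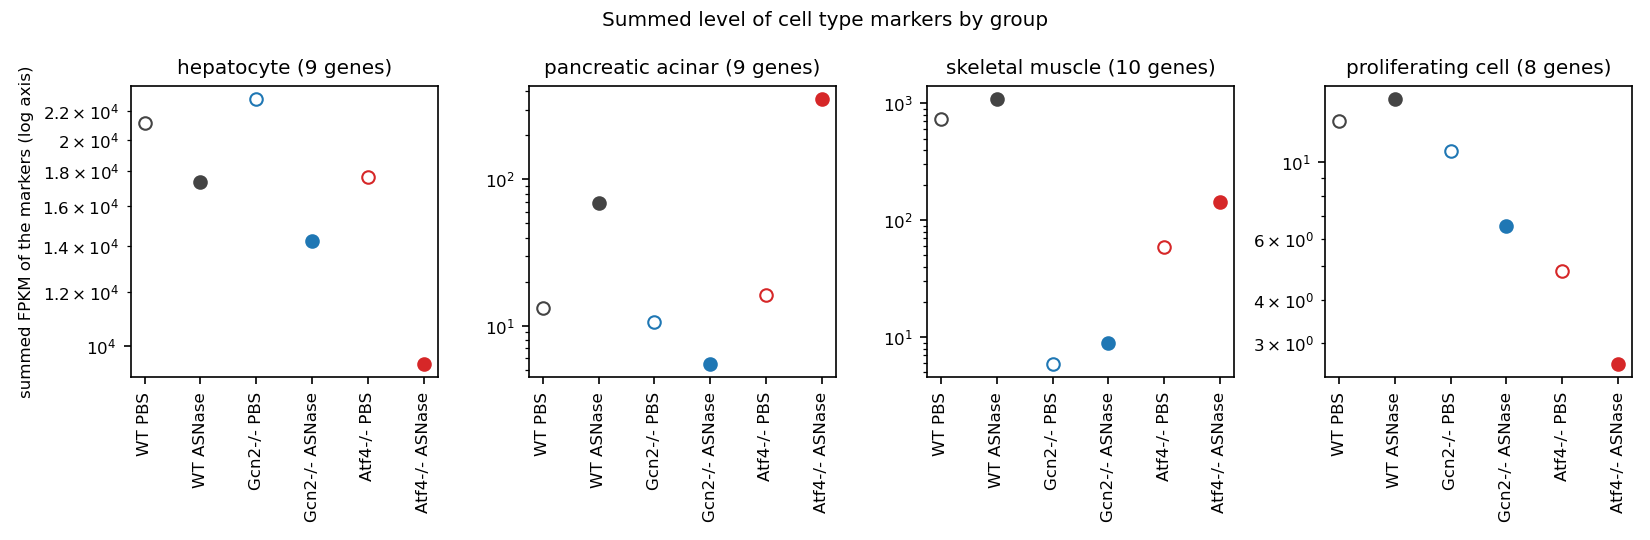
Summed FPKM of cell type markers (vertical axes, logarithmic and different in range) in the 6 groups (horizontal axis), 1 value per group, with open circles for PBS and filled circles for ASNase. Hepatocyte markers are lowest and pancreatic acinar markers highest in Atf4-/- ASNase livers, and skeletal muscle markers are high in both WT groups.

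The genes around the pathway showed where else one-carbon metabolism differed. Of 12 genes for glycine cleavage and for one-carbon units from choline, all were eligible, and ASNase gave 0 calls in WT, 0 in Gcn2-/- and 2 in Atf4-/- livers, where 0.881%, 3.69% and 7.37% of all eligible genes were called. The same shares stand behind the ASNase counts of the lists that follow. There Pipox, which oxidizes sarcosine and pipecolate, fell from an FPKM of 163 (81.8 to 243) to 37.8 (20.5 to 55.1), a log2 difference of -2.102, and Amt, the aminomethyltransferase of the glycine cleavage system, fell from 24.0 (13.7 to 34.4) to 7.76 (3.40 to 12.1), which is -1.62 on the log2 scale. The list medians were -0.12, -0.74 and -0.88 in WT, Gcn2-/- and Atf4-/- livers, against -0.01, 0.02 and 0.08 for all eligible genes. Against WT ASNase, all 12 genes were lower in Atf4-/- ASNase livers (median -1.12, against 0.07), as were 46.1% of all eligible genes, and 1, Pipox, was called, against 8.25%. The genes that make one-carbon units from glycine and choline thus lay on the same side as Shmt1, Shmt2 and Mthfd1.

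Of 15 genes for the folate cycle and folate transport, 10, 12 and 11 were eligible for the response to ASNase in the order WT, Gcn2-/- and Atf4-/-. The 1 called was lower in Atf4-/- livers. Folr2, a folate receptor typical of macrophages, fell from 18.3 (10.2 to 26.5) to 3.73 (1.48 to 5.98), which is -2.27 on the log2 scale. The macrophage and Kupffer cell markers, 6 of 7 with usable values, summed to 179 and 137 in the same groups.

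Of 14 genes listed for the use of serine, glycine and the related glyoxylate, 13 were eligible in each genotype, with 0 called in WT, 1 in Gcn2-/- and 2 in Atf4-/- livers. Those called, Agxt and Hao1, form glycine and its precursor glyoxylate. Agxt, which converts glyoxylate to glycine in hepatocyte peroxisomes, fell from an FPKM of 416 (199 to 633) to 94.3 (51.0 to 138) in Gcn2-/- livers and from 181 (93.9 to 269) to 58.2 (33.7 to 82.8) in Atf4-/- livers, and was 217 and 200.04 in WT PBS and ASNase. Hao1, the glycolate oxidase that supplies glyoxylate, fell from 125 (66.1 to 184) to 11.2 (5.87 to 16.6) in Atf4-/- livers, a log2 difference of -3.46. It was 118 and 60.6 in Gcn2-/- PBS and ASNase and did not meet the rule there. Of 11 serine and glycine transporters, 0 of 7, 8 and 7 eligible were called after ASNase. Named after their values were seen, Slc1a4, a neutral amino acid exchanger, and Sfxn2, of the sideroflexin family, were the 2 called lower in Atf4-/- than in Gcn2-/- ASNase livers, at 0.557 against 3.72 and at 6.78 against 21.7, in a comparison with 3.19% of eligible genes called. Of 13 genes of de novo purine synthesis, which uses folate-borne carbon, 0 of 12, 13 and 13 eligible were called, with medians of 0.01, 0.02 and 0.54 in WT, Gcn2-/- and Atf4-/- livers.

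Of 18 other ATF4 target genes, 7 of 14 eligible were called after ASNase in Atf4-/- livers, while 2 of 15 were called in WT and 2 of 13 in Gcn2-/- livers. Called or not, 13 of 14 were higher after ASNase in Atf4-/-, 14 of 15 in WT and 7 of 13 in Gcn2-/- livers. The shares of all eligible genes that were higher were 53.8%, 49.0% and 51.5%. Some targets, such as Asns in WT and Atf4-/- livers, passed the FPKM limit only in the ASNase group, which fixed them as higher. No conclusion is therefore drawn from the counts of targets called or higher. In WT livers Fgf21, named after its value was seen, rose by 3.71 and Trib3 by 1.82 on the log2 scale. In Gcn2-/- livers Ddit4, an inhibitor of mTORC1, rose by 4.27, and Fgf21 fell by 3.25. All 7 called in Atf4-/- livers rose, among them Trib3, a pseudokinase, from an FPKM of 3.63 (1.72 to 5.54) to 150 (60.2 to 239), and Asns, from 0.591 (0 to 1.70) to 20.1 (7.27 to 32.9). The list median was 2.50 there over its 14 eligible genes. For the enzymes the median was -0.83 over the 5 eligible and 0.34 over all 10. The FPKM limit admitted targets such as Asns only through the ASNase group. It left out Psat1 and Mthfd1l, which were higher after ASNase, so these medians cannot be set against each other. Psat1, the enzyme with the largest increase in that comparison, reached an FPKM of 1.28. The lists are not independent samples of genes, and no test of one against another was made.

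**Figure D4:**
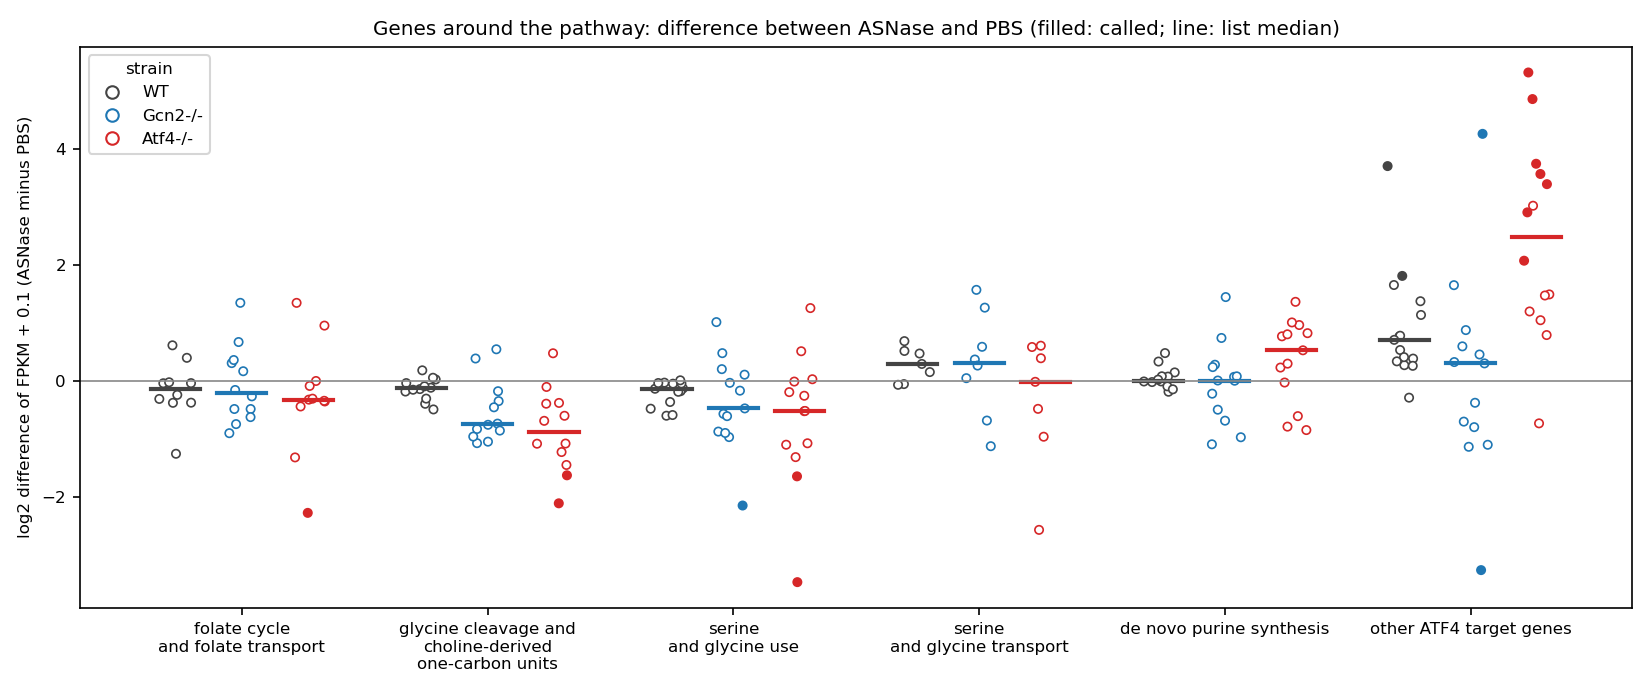
Difference between ASNase and PBS on log2(FPKM + 0.1) (vertical axis) for the eligible genes of the 6 lists (horizontal axis) in WT, Gcn2-/- and Atf4-/- livers, 1 circle per gene, filled where called, with a line at each median. In Atf4-/- livers the other ATF4 targets have a median of 2.50, and the glycine cleavage and choline genes one of -0.88.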

How the data were processed

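RNA-Seq of liver covered 18 mice in 6 groups of 3, formed from the sample labels. The authors prepared poly-A libraries with a kit that does not mark strand, mapped the reads on mm10 using TopHat, and estimated FPKM with Cuffdiff, which pooled the 3 libraries of a group. The table the authors deposited holds 1 FPKM per gene and group with the bounds of its interval, also in FPKM, and a status; 0 value columns were left unmapped. Single libraries and counts were not used here, so the depth behind a value is unknown.

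The differences were computed here as log2(FPKM + 0.1) from the deposited values (Python 3.11.15, pandas 2.3.3) over the whole table. A gene was called with status OK and a value above 0 in both groups, an FPKM over 3 in either, a log2 difference over 1.5 and separate intervals. The rule was tested on simulated data with larger changes than the eligible enzymes showed. Its yield for changes of their size is unknown. From each list at most 3 genes were named, those with the largest difference among genes called after ASNase. The 10 genes, the lists and the rule were chosen with earlier results of these data known. Of the genes on the lists, 2 are not reported here. Positions are from GENCODE M21, promoter windows from RefSeq, and similar transcripts (97% identity over 100 bases or more) from BLAST 2.17.0. Tried instead were a pseudocount of 1, no FPKM limit, a log2 limit of 1, the combined error in place of separate intervals, and median-ratio scaling.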

Additional observations from a re-analysis of the deposited data

Results flagged for a closer look

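Mthfd1l, the mitochondrial formyltetrahydrofolate synthetase, was the one enzyme whose ASNase difference varied between genotypes by more than 1.5 and more than the combined error of its 4 values. It was 1.74 on the log2 scale in Atf4-/- and -0.56 in Gcn2-/- livers, a difference of 2.30 (error 1.57). With a pseudocount of 1 in place of 0.1 it was 1.11, under the limit. The FPKM behind it was below 3 in all groups, from 0.248 in Atf4-/- PBS to 2.28 in Gcn2-/- PBS. These PBS levels had intervals of 0 to 0.519 and 0.722 to 3.84, which do not overlap, in a pair not among the 8 comparisons. Under ASNase the same genotypes differed by -0.48 (error 1.12). The value of 2.30 thus came mostly from the PBS levels. It had no replicate check and was not tested.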

How the results depend on the processing

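With the combined error in place of separate intervals, the number of enzymes called was 1 in WT ASNase against WT PBS (Psat1), 1 in Atf4-/- ASNase against Atf4-/- PBS (Shmt1), 1 in Gcn2-/- against WT ASNase (Psat1) and 1 in Atf4-/- against WT ASNase (Shmt1). The other 4 comparisons stayed at 0 there, and all 8 stayed at 0 with a pseudocount of 1, without the FPKM limit, with a log2 limit of 1 and with median-ratio scaling. Since 0 of the 10 enzymes had separate intervals in any of the 8 comparisons, the pseudocount and these limits could not have added a call. Those counts are therefore no check of the result. The Psat1 calls under the combined error rest on the small pseudocount, since with a pseudocount of 1 the differences were 1.42 and -1.08. Of the 80 single differences, 8 moved by more than 0.5 of their combined error with a pseudocount of 1, 1 of them by more than the whole error, and 0 changed sign. With median-ratio scaling 0 moved and 0 changed sign. In alternatives chosen after seeing the data, a pseudocount of 1 left 0 enzymes whose ASNase difference varied between genotypes, in place of 1 (Mthfd1l), and 14 of the 16 differences over the combined error still passed. Intervals as wide as the values limit the scarce enzymes. No paired analysis was possible because the table holds 1 value per group, and leaving out replicates was not run for the same reason.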

Other observations

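Over the 6 group values on log2(FPKM + 0.1), Pearson's r was 0.99 between Shmt1 and Mthfd1, 0.96 between Shmt2 and Mthfd1 and 0.95 between Shmt1 and Shmt2 among the abundant enzymes, and 0.94 between Psat1 and Mthfd2 among the scarce ones. Between a gene of one set and a gene of the other, r ran from -0.41 (Psph with Shmt1) to 0.56 (Phgdh with Shmt2). The 6 points share the Cuffdiff run and the pooled libraries, and the values are a description. Among 10172 genes, those most like Psat1 were Lims1 (0.99), Lrrc58 (0.97) and Tstd2 (0.96). Those most like Mthfd2 were Tstd2 (0.98), Lrrc58 (0.97) and Cidec (0.97), so that Lrrc58 and Tstd2 were on both lists. Phgdh was most like Gyg (0.98), Pcsk6 (0.98) and Gm11382 (0.97), and Aldh1l2 most like 1110018G07Rik (0.97), Gm129 (0.96) and Ivns1abp (0.95). No test was made of any of these values.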
